A study of Mus musculus with 16 samples.

Results

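The collagen genes of the postnatal mouse lung were followed in a microarray study of neonatal oxygen exposure. A gene was taken as a collagen gene if the platform symbol of any of its array features read Col, a number, the letter a and a number. This gave 42 genes measured by 72 features, of 20739 named genes and 62976 features on the array. All 42 genes and all 72 features passed the filter on low signal, which 20174 genes passed. By class, 11 were fibrillar, 6 were the type IV collagens of basement membranes and 25 belonged to other families. Total RNA of whole lung homogenate was labelled with Cy3 and hybridised to a one-colour Agilent array, with 1 array per sample. The 16 arrays formed 4 groups of 4, all from pups at postnatal day 3: wild type in normoxia, wild type in 85% oxygen, Fgf10+/- in normoxia and Fgf10+/- in 85% oxygen. Fgf10+/- pups carry 1 inactivated copy of the gene for a growth factor of the lung mesenchyme. The exposed pups breathed 85% oxygen from postnatal day 0 to 3. The labels do not state the allele, the strain, the sex of the pups or whether any were pooled. They also do not say whether replicates are separate animals or litters, so a p-value here reflects the spread among these arrays, which may be technical. Because whole lung was homogenised, fewer cells of a type and less RNA per cell cannot be told apart.

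Collagens are triple-helical proteins of the extracellular matrix. Fibrillar collagens are secreted as procollagens, trimmed at their ends by proteases, and assembled into the fibrils that carry tension in airway walls, vessels and alveolar septa. Type IV collagens form the sheet-like network of the basement membranes that underlie lung epithelium and endothelium, where the chains encoded by Col4a1 and Col4a2 make the general network and those encoded by Col4a3, Col4a4 and Col4a5 make the network of the alveolar and glomerular barriers. The remaining families decorate fibrils, form microfibrils or anchoring fibrils, or span the cell membrane.

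Values are log2 intensities as the authors deposited them, so differences are ratios on a log scale. The median of every array was 4.50 and the highest value 15.99, so a level near 4.50 is close to the dim end and a level above 15 is close to the top of the scale. Levels of different genes come from different probes and were not compared with each other. Differences were tested with limma over all 16 arrays, and a gene is said to have risen or fallen where its p-value, adjusted by Benjamini and Hochberg over all 20174 genes, was under 0.05. Of the 42 collagen genes, 5 had all 4 group means under the array median (Col10a1, Col28a1, Col6a5, Col8a1 and Col9a3), 8 had 1 to 3 group means under it, and 29 had none.

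The arrays carried the signal of lung in every sample, with a mean over 8 lung epithelial markers between 12.86 and 13.42. Replicates of a group correlated with r between 0.974 and 0.983 over the genes that passed the filter, each read from 1 feature. The Fgf10 signal was 7.80 ± 0.39 in wild type and 8.28 ± 0.32 in Fgf10+/- in normoxia, and 7.85 ± 0.18 and 7.64 ± 0.26 in 85% oxygen (SD, n = 4 each). It was thus not lower in the arrays labelled Fgf10+/- in normoxia (limma, adjusted p = 0.334), and the labels do not say whether this probe lies in the inactivated part of the gene. The array of wild-type normoxia replicate 4 stood apart from the rest. Its mean over 12 cartilage markers was 7.70 against 4.84 in the other 3 arrays of its group and at most 5.15 in any other array. Its mean over 12 skeletal muscle markers was 8.04, against at most 5.45 in any other array, and its mean over 8 fat markers was 6.16, against at most 5.45. For collagen genes the wild-type value without this array is given wherever a call was lost or gained.

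In 85% oxygen a small group of collagen genes fell and a smaller group rose, while most did not pass the test. In wild type 7 of 42 collagen genes fell and 3 rose, beside 8.74% of all genes tested that fell and 10.3% that rose. In Fgf10+/- 4 fell and 4 rose, beside 10.7% and 13% of all genes. The called share of the collagens, 23.8% in wild type and 19% in Fgf10+/-, lay near the 19.1% and 23.7% of all genes, so these counts say nothing particular to collagens. Their median log2 difference was -0.08 in wild type and -0.01 in Fgf10+/-, against 0.03 over all genes in both. Without wild-type normoxia replicate 4, 3 collagen genes fell and 2 rose in wild type, when 15.8% of all genes were called, and the median was 0.02. The count that fell in wild type was also 3 without normoxia replicate 2 and 4 without exposed replicate 1 or 2, and in Fgf10+/- it was 2 without exposed replicate 1.

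The calls in the 2 genotypes gave 4 patterns. Col1a2, Col5a1, Col5a2 and Col6a2 fell in both genotypes, as did 6.6% of all genes. Col4a4, Col7a1 and Col8a2 rose in both, as did 7.63% of all genes. Col24a1, Col4a1 and Col4a2 fell in wild type only by the calls, and Col4a3 rose in Fgf10+/- only by the calls. None of these last 4 genes passed the interaction test, which asks whether the oxygen difference itself differed between the genotypes. The other 31 collagen genes passed in neither genotype.

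**Figure D1:**
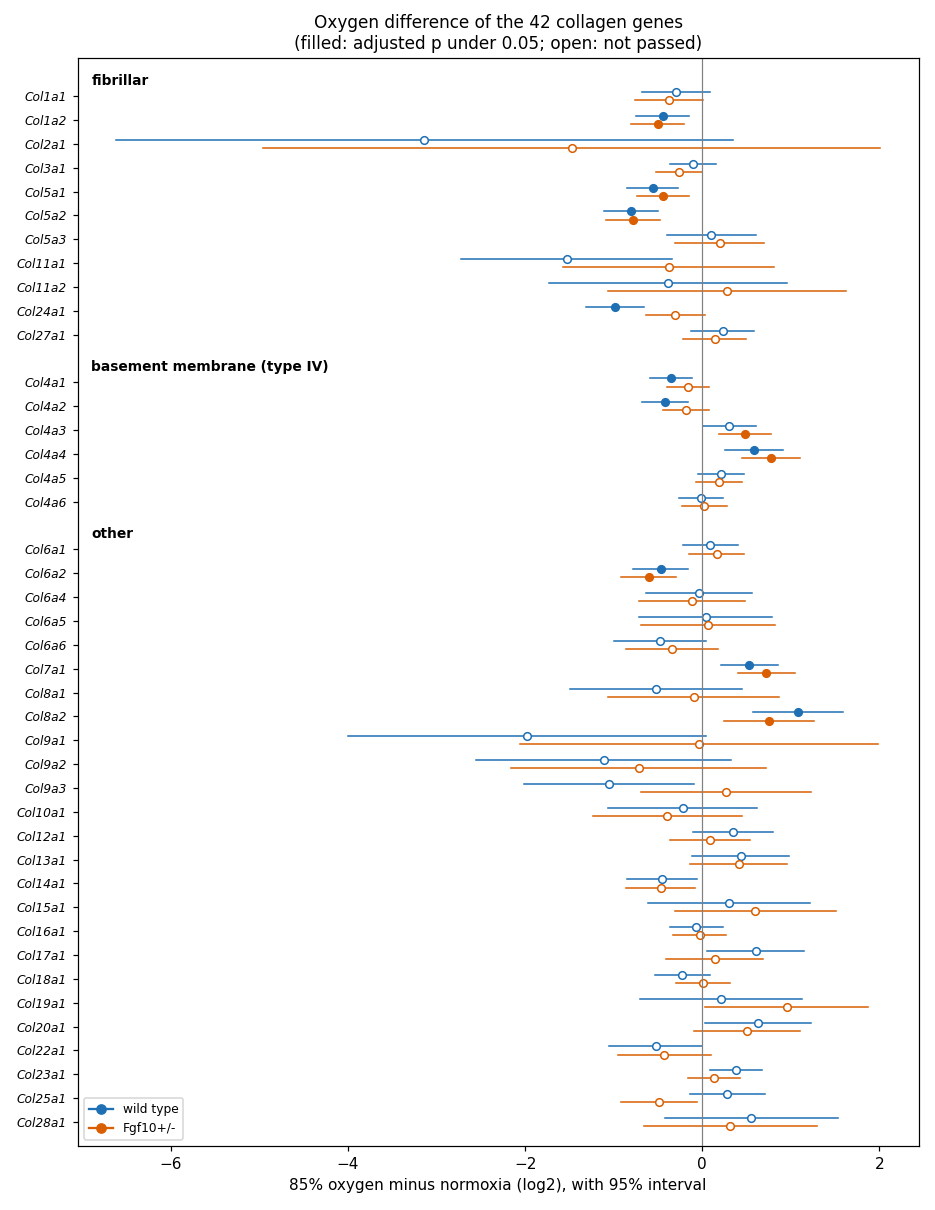
Log2 difference between 85% oxygen and normoxia (x axis) for each of the 42 collagen genes by class, in wild type (blue) and Fgf10+/- (orange), with 95% intervals from limma; filled points had an adjusted p under 0.05. The fibrillar genes that passed lie left of 0, the type IV genes lie on both sides, and the widest intervals belong to Col2a1, Col9a1 and Col9a2, the genes that were high in 1 array.

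The start regions of 4 of the genes called in both genotypes are shown as examples: Col1a2 and Col6a2 fell, Col7a1 and Col8a2 rose. Those of Col5a1, Col5a2 and Col4a4, also called in both, are not shown. Each line gives the 250 bases before the first transcribed base, 5′ to 3′ on the strand of the gene, from RefSeq on GRCm38.p6, with capitals for matches on either strand to the CCAAT box, spelled CCAAT, to the GC box, spelled GGGCGG, or to the TATA box, spelled TATAAA.
Col1a2 promoter, chr6:4505368-4505617 (plus strand): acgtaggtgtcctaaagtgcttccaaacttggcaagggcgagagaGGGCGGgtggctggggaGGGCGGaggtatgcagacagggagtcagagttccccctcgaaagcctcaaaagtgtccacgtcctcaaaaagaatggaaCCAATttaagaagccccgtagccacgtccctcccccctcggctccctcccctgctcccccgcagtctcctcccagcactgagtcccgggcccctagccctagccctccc
Col6a2 promoter, chr10:76623631-76623880 (minus strand): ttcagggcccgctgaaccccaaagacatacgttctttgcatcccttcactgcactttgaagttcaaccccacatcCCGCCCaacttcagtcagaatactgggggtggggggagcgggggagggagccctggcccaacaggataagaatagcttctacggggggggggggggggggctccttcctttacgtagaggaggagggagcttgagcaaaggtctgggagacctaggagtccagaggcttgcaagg
Col7a1 promoter, chr9:108953336-108953585 (plus strand): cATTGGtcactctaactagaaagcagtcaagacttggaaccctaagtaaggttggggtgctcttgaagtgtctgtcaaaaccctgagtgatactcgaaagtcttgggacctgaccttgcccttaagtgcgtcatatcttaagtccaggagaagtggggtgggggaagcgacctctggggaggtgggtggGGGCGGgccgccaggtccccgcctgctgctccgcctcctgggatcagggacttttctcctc
Col8a2 promoter, chr4:126286544-126286793 (plus strand): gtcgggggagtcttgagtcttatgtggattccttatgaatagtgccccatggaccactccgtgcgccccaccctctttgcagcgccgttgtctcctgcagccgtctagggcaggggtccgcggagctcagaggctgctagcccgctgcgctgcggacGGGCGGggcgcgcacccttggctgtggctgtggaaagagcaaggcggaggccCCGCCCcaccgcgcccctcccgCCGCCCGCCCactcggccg
Col1a2 held 1 CCAAT match, 109 to 105 bases before the start, and 2 GC boxes, and Col6a2 held 1 GC box. Col7a1 held 1 CCAAT match on the opposite strand and 1 GC box, and Col8a2 held 4 GC boxes, the last 2 of them overlapping. None of the 4 held TATAAA. Over the 38 windows matched to 35 collagen genes, 34.2% held CCAAT, 57.9% the GC box and 13.2% TATAAA, against 33.8%, 32.7% and 12.4% of all 32851 windows in the table. Genes that fell and genes that rose both held GC boxes, and a match is a description of letters only.

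Among the fibrillar collagens, 4 of 11 fell in wild type and 3 of 11 fell in Fgf10+/-, and none rose, beside 8.74% and 10.7% of all genes that fell. The class median was -0.45 in wild type and -0.38 in Fgf10+/-, against 0.03 over all genes in both. Without wild-type normoxia replicate 4, 3 fell in wild type. Col5a2 changed most firmly of the genes called in both genotypes. It encodes a chain of type V collagen, which sits in the core of type I fibrils and sets their diameter. In replicates 1 to 4 it stood at 9.31, 9.62, 9.43 and 9.53 in wild type in normoxia and at 8.92, 8.52, 8.50 and 8.72 in 85% oxygen. In Fgf10+/- it stood at 9.96, 9.59, 9.55 and 9.58 in normoxia and at 8.67, 9.02, 8.69 and 9.17 in 85% oxygen. All 8 exposed arrays lay below all 8 normoxia arrays. Col5a2 fell by 0.81 ± 0.14 (SE) on the log2 scale in wild type, 1.75-fold (limma, adjusted p = 0.00125). In Fgf10+/- it fell by 0.79 ± 0.14, 1.72-fold (limma, adjusted p = 0.00111). Both calls held when any 1 array of the groups compared was left out and under every other setting tried.

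Col5a1 encodes the other common chain of type V collagen. Its signal was 10.51, 10.77, 10.59 and 10.83 in wild type in normoxia and 10.25, 9.89, 10.22 and 10.10 in 85% oxygen. The Fgf10+/- arrays read 10.92, 10.91, 10.66 and 10.77 in normoxia and 10.02, 10.61, 10.31 and 10.54 in 85% oxygen. Neither genotype's groups overlapped, and the gap was narrow in Fgf10+/-, where exposed replicate 2 lay just below normoxia replicate 3. Col5a1 fell by 0.56 ± 0.14 in wild type (limma, adjusted p = 0.00944) and by 0.44 ± 0.14 in Fgf10+/- (limma, adjusted p = 0.0280). The Fgf10+/- call was lost without replicate 1 or 2 of its normoxia arrays or replicate 1 or 3 of its exposed arrays, with adjusted p up to 0.0865. Col5a3, the less widespread chain of this type, was not called and its group means lay between 5.39 and 5.88. Its wild-type normoxia replicate 4 read 6.31, against 4.94 to 5.31 in the rest of that group. Leaving this array out moved its wild-type oxygen difference from 0.10 to 0.41 (limma, adjusted p = 0.0611). The genotype difference in normoxia moved from 0.29 to 0.59 (limma, adjusted p = 0.0525). Neither was called.

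The 2 chains of type I collagen, the main fibril protein of the lung interstitium, differed in their calls. Col1a2 stood at 15.21, 15.39, 15.15 and 15.53 in wild type in normoxia and at 15.03, 14.67, 14.81 and 14.99 in 85% oxygen. The Fgf10+/- arrays gave 15.69, 15.62, 15.55 and 15.67 in normoxia and 14.77, 15.36, 15.02 and 15.36 in 85% oxygen. The exposed arrays lay below the normoxia arrays in each genotype, and these levels are close to the top of the scale, where the array can understate a difference. Col1a2 fell by 0.45 ± 0.14 in wild type (limma, adjusted p = 0.0368) and by 0.50 ± 0.14 in Fgf10+/- (limma, adjusted p = 0.0169). The wild-type difference became -0.38 with an adjusted p of 0.104 in limma without wild-type normoxia replicate 4. That call was also lost without wild-type normoxia replicate 2 or exposed replicate 2 or 3, and the Fgf10+/- call without exposed replicate 1.

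Col1a1, the partner chain, read 13.55, 13.54, 13.45 and 13.68 in wild type in normoxia and 13.31, 13.00, 13.22 and 13.49 in 85% oxygen. In Fgf10+/- it read 13.99, 13.94, 13.63 and 13.81 in normoxia and 12.84, 13.62, 13.54 and 13.86 in 85% oxygen. The groups overlapped in both genotypes, where exposed replicate 4 was the brightest of its group each time. The differences were -0.30 ± 0.18 in wild type (limma, adjusted p = 0.294) and -0.38 ± 0.18 in Fgf10+/- (limma, adjusted p = 0.156). Their 95% intervals, -0.68 to 0.09 and -0.76 to 0.01, included the differences measured for Col1a2. Col3a1, the single chain of type III collagen, which forms finer fibrils with type I in elastic tissues, gave -0.10 ± 0.12 in wild type and -0.26 ± 0.12 in Fgf10+/- (limma, adjusted p = 0.626 and 0.142). Its wild-type arrays overlapped, at 13.49 to 13.97 in normoxia and 13.32 to 13.78 in 85% oxygen. In Fgf10+/- they did not, at 13.91 to 14.18 and 13.66 to 13.82.

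Col24a1 had the lowest adjusted p of any collagen gene in wild type. It encodes a minor fibrillar chain known from developing bone and cornea. In wild type it stood at 5.57, 5.82, 5.44 and 5.62 in normoxia and at 4.73, 4.69, 4.35 and 4.75 in 85% oxygen, without overlap. The exposed arrays came down to the median of the array, so the fold rests on a dim signal. Col24a1 fell by 0.98 ± 0.15 in wild type, 1.98-fold (limma, adjusted p = 0.000539), and the call held without any single array of the groups compared. Its Fgf10+/- values were 5.18, 5.14, 5.54 and 5.16 in normoxia and 4.72, 4.75, 5.37 and 4.97 in 85% oxygen, where exposed replicate 3 lay among the normoxia arrays. The difference there was -0.30 ± 0.15 (limma, adjusted p = 0.185), or -0.44 without that array (limma, adjusted p = 0.0404). The 2 oxygen differences were 0.68 ± 0.22 apart, and this interaction did not pass (limma, adjusted p = 0.618, unadjusted p = 0.00738).

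**Figure D2:**
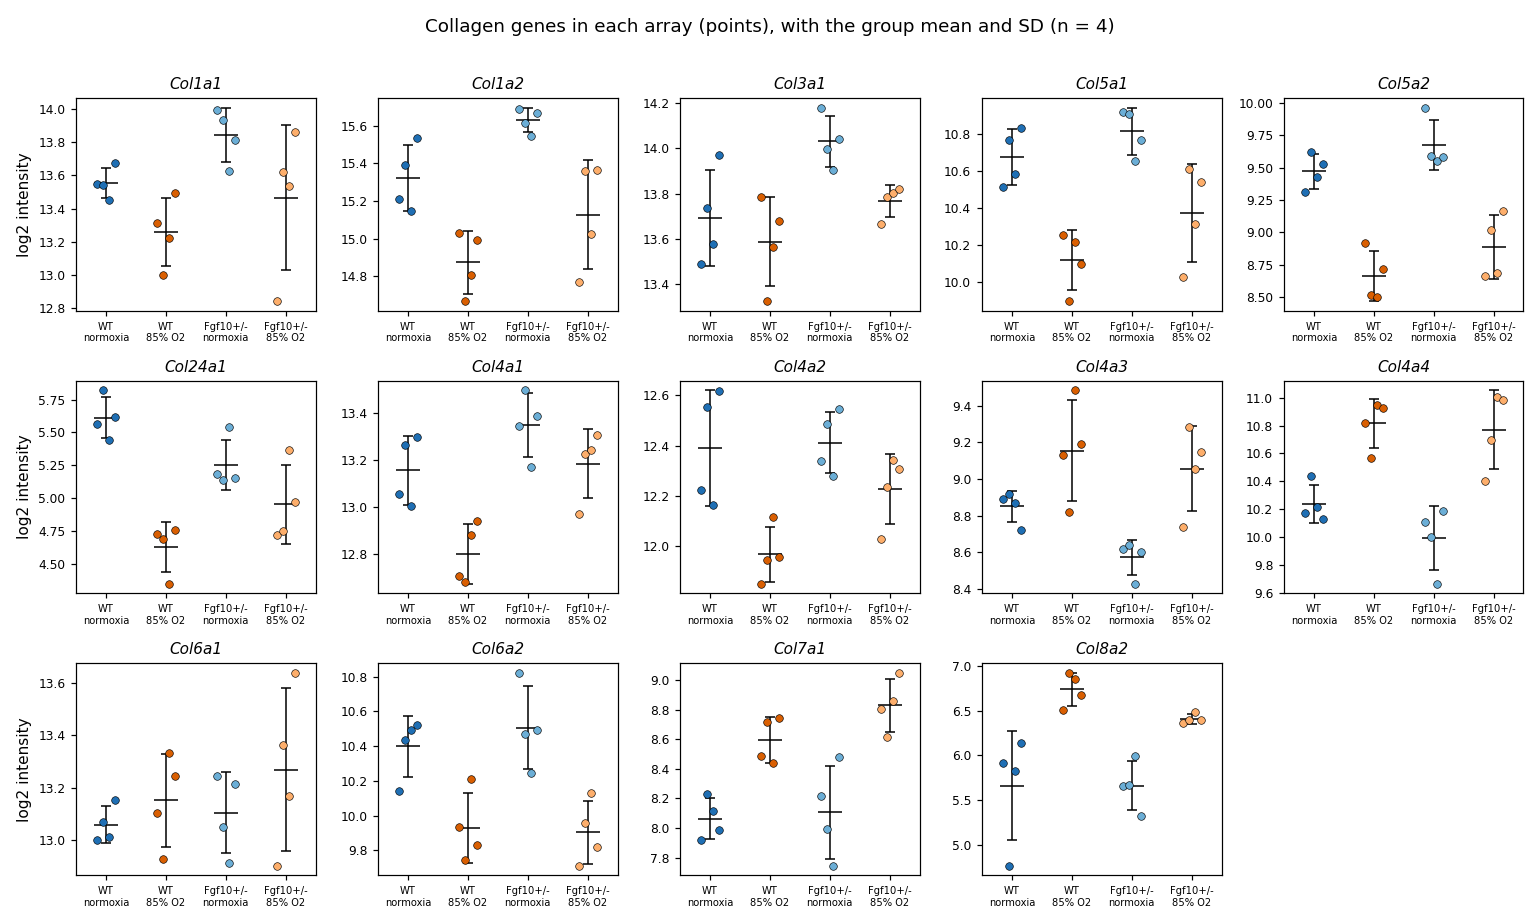
Log2 intensity (y axis, a scale of its own in each panel) of 14 collagen genes in each of the 16 arrays, by group on the x axis; points are arrays, and bars give the group mean and SD of 4 arrays. Col5a2 shows all exposed arrays below all normoxia arrays, Col4a4 shows the exposed arrays above the normoxia arrays of their own genotype, and Col6a1 overlapping groups beside Col6a2.

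The collagens of cartilage turned on 1 array. Col2a1 encodes the main fibrillar chain of cartilage, and Col9a1, Col9a2, Col9a3, Col11a1 and Col11a2 encode chains of the type IX and type XI collagens that share its fibrils. In wild type in normoxia Col2a1 read 4.47, 6.04, 3.29 and 14.23. Col9a1 read 4.09, 3.98, 3.78 and 9.55, and Col9a2 read 6.12, 5.74, 5.13 and 9.59. Col11a1 read 4.05, 4.44, 4.87 and 7.53. Replicate 4 was the highest array of the group for all 6 of these genes, and it is the array with the raised cartilage and muscle markers: Ucma stood at 11.34, Snorc at 10.27 and Comp at 9.25 there, while Matn1 stood at 3.97, near background. The oxygen difference of Col2a1 in wild type was -3.14 ± 1.63 with this array and -0.73 without it (limma, adjusted p = 0.210 and 0.346). For Col9a1 it moved from -1.98 to -0.58, for Col9a2 from -1.11 to -0.13, for Col11a1 from -1.53 to -0.76, for Col9a3 from -1.05 to -0.72 and for Col11a2 from -0.39 to 0.37. None of the 6 was called in any contrast with all 16 arrays. Without this array none was called in the contrasts that use its group. The comparisons that do not use its group were not refitted without it.

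In Fgf10+/- Col2a1 read 5.45, 5.91, 5.71 and 5.90 in normoxia and 4.51, 3.76, 4.63 and 4.17 in 85% oxygen. The 2 groups did not overlap, a pattern shared by 11.1% of all genes in this comparison and by 8 of the 42 collagens. The limma difference of -1.47 ± 1.63 carried the spread of the wild-type arrays and was not called (adjusted p = 0.582).

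**Figure D3:**
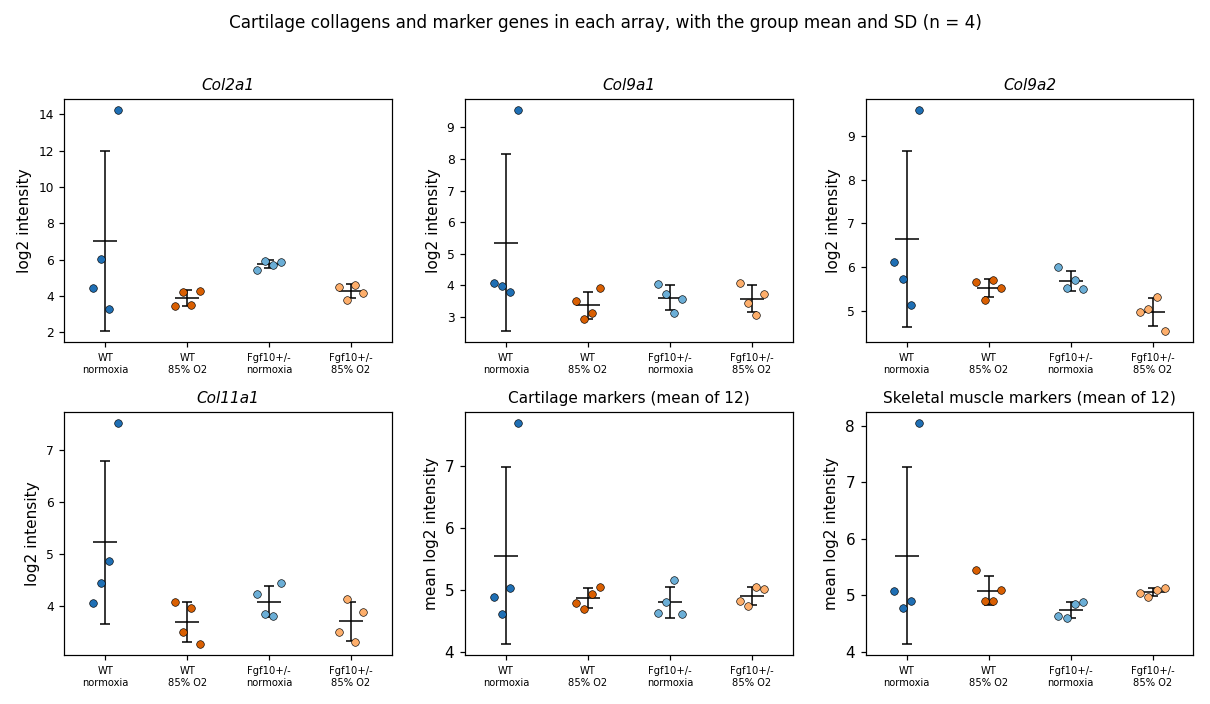
Log2 intensity of 4 cartilage collagens in each array by group, and the mean log2 intensity over 12 cartilage and over 12 skeletal muscle marker genes; points are arrays, bars the group mean and SD of 4 arrays, and each panel has its own y scale. The top wild-type normoxia point is replicate 4 in all 6 panels, at 14.23 for Col2a1 and 7.70 for the cartilage markers.

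The type IV collagens of basement membranes moved in 2 directions. In wild type Col4a1 and Col4a2 fell and Col4a4 rose; in Fgf10+/- Col4a3 and Col4a4 rose and none fell. With all arrays the called share of these 6 genes was 50% in wild type and 33.3% in Fgf10+/-, against 19.1% and 23.7% of all genes. Without wild-type normoxia replicate 4, 1 of the 6 rose and 0 fell in wild type, when 15.8% of all genes were called. Col4a1 and Col4a2 are neighbouring genes transcribed away from each other, and the same holds for Col4a3 with Col4a4 and for Col4a5 with Col4a6, in the RefSeq annotation of GRCm38.p6. Both members of the first pair had negative differences in both genotypes, and both members of the second had positive ones. Of the third pair, Col4a5 gave 0.22 and 0.19 and Col4a6 gave -0.01 and 0.02 in wild type and Fgf10+/-, and neither was called.

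Col4a1 stood at 13.06, 13.26, 13.00 and 13.30 in wild type in normoxia and at 12.71, 12.68, 12.88 and 12.94 in 85% oxygen. Col4a2 stood at 12.22, 12.56, 12.16 and 12.62 in normoxia and at 11.85, 11.95, 12.12 and 11.96 in 85% oxygen. Neither overlapped between the wild-type groups, though exposed replicate 4 lay just below normoxia replicate 3 for Col4a1 and exposed replicate 3 just below the same array for Col4a2. Col4a1 fell by 0.36 ± 0.11 (limma, adjusted p = 0.0371) and Col4a2 fell by 0.42 ± 0.12 (limma, adjusted p = 0.0237) in wild type. Without wild-type normoxia replicate 4 the differences were -0.31 and -0.35 (limma, adjusted p = 0.101 and 0.0733). Both calls were also lost without wild-type normoxia replicate 2 or exposed replicate 1 or 2, and that of Col4a1 without exposed replicate 3. In Fgf10+/- Col4a1 stood at 13.34, 13.50, 13.17 and 13.39 in normoxia and at 12.97, 13.22, 13.24 and 13.30 in 85% oxygen, with overlap. Its difference there was -0.17 (95% interval -0.40 to 0.07), and that of Col4a2 was -0.18 (-0.44 to 0.07). The interaction of genotype and oxygen was 0.19 for Col4a1 and 0.24 for Col4a2 (limma, adjusted p = 0.870 and 0.843).

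Col4a1 had 10 features on the array, which gives a check on single features. The sources do not tell whether they repeat 1 probe. All 10 had a negative oxygen difference in both genotypes, from -0.43 to -0.30 in wild type and from -0.20 to -0.09 in Fgf10+/-. Of the 10, 7 passed in wild type and none in Fgf10+/-, while 16.9% and 21.7% of all 30551 named features were called. The 10 features read the same RNA on the same arrays, so they are not separate evidence for the call of the gene. Within an array the 10 features differed by an SD of 0.0617 to 0.122, while the SD between arrays of a group was 0.13 to 0.18 for their mean. The features thus differed from each other less than replicate arrays did.

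Col4a4 encodes a chain of the alveolar and glomerular barrier network. It stood at 10.17, 10.44, 10.21 and 10.13 in wild type in normoxia and at 10.82, 10.57, 10.95 and 10.93 in 85% oxygen. In Fgf10+/- it stood at 10.11, 9.997, 9.67 and 10.19 in normoxia and at 10.40, 10.69, 11.003 and 10.98 in 85% oxygen. All exposed arrays lay above the normoxia arrays of their genotype. Col4a4 rose by 0.58 ± 0.15 in wild type (limma, adjusted p = 0.0154) and by 0.78 ± 0.15 in Fgf10+/-, 1.72-fold (limma, adjusted p = 0.00192). Both calls held without any single array of the groups compared. Only 1 of its 3 features, the brightest, passed in each genotype. The 3 features ranged from 0.15 to 0.58 in wild type and from -0.19 to 0.78 in Fgf10+/-, and with the mean of the 3 the adjusted p was 0.149 and 0.283 in limma. The call of Col4a4 therefore rests on 1 feature.

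Its neighbour Col4a3 encodes the chain that carries the Goodpasture antigen. It stood at 8.89, 8.92, 8.87 and 8.72 in wild type in normoxia and at 9.13, 8.82, 9.48 and 9.19 in 85% oxygen, where replicate 2 lay among the normoxia arrays. The Fgf10+/- arrays gave 8.62, 8.64, 8.43 and 8.60 in normoxia and 8.74, 9.28, 9.05 and 9.15 in 85% oxygen, without overlap. Col4a3 rose by 0.48 ± 0.14 in Fgf10+/- (limma, adjusted p = 0.0204), a call lost without normoxia replicate 3 or exposed replicate 2. The wild-type difference was 0.31 ± 0.14 (limma, adjusted p = 0.150), or 0.42 without exposed replicate 2 (limma, adjusted p = 0.0494). The interaction was 0.18 (limma, adjusted p = 0.900).

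Among the 25 other collagens, 2 rose and 1 fell in each genotype, and the 3 genes were Col7a1, Col8a2 and Col6a2 both times. The called share of this class was 12% in each genotype, below the 19.1% of all genes in wild type and 23.7% in Fgf10+/-. Col6a2 and Col6a1 encode chains that assemble with a further one into the beaded microfibrils of type VI collagen, and they lie side by side in the genome. Col6a2 stood at 10.14, 10.44, 10.49 and 10.52 in wild type in normoxia and at 9.93, 9.74, 10.21 and 9.83 in 85% oxygen. Its Fgf10+/- values were 10.82, 10.47, 10.24 and 10.49 in normoxia and 9.71, 9.96, 10.13 and 9.82 in 85% oxygen. The wild-type groups overlapped by 1 array and the Fgf10+/- groups did not. Col6a2 fell by 0.47 ± 0.14 in wild type (limma, adjusted p = 0.0353) and by 0.60 ± 0.14 in Fgf10+/-, 1.52-fold (limma, adjusted p = 0.00739). The wild-type call was lost in 6 of the 8 fits without 1 array, among them that without wild-type normoxia replicate 4 (difference -0.43, limma adjusted p = 0.0890), while the Fgf10+/- call held in all 8.

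Col6a1 was not called in either genotype. It stood at 13.00, 13.07, 13.01 and 13.15 in wild type in normoxia and at 13.10, 12.93, 13.33 and 13.24 in 85% oxygen, and in Fgf10+/- at 13.25, 13.05, 12.91 and 13.21 and at 12.90, 13.36, 13.17 and 13.64. The groups overlapped, and the differences were 0.09 (95% interval -0.21 to 0.40) and 0.16 (-0.14 to 0.47), with limma adjusted p-values of 0.727 and 0.476. Both intervals excluded the point value of the fall of Col6a2. In wild type, however, the Col6a2 interval of -0.78 to -0.16 overlapped that of Col6a1, while in Fgf10+/- that of -0.91 to -0.29 did not. The 2 genes were not tested against each other. No feature of the platform was named for Col6a3, the third chain, which is not analysed here.

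Col7a1 encodes the collagen of the anchoring fibrils that fasten epithelial basement membranes to the stroma below. It stood at 7.92, 8.23, 8.11 and 7.99 in wild type in normoxia and at 8.49, 8.71, 8.44 and 8.74 in 85% oxygen. In Fgf10+/- it stood at 8.21, 7.99, 7.74 and 8.48 in normoxia and at 8.80, 8.61, 8.86 and 9.05 in 85% oxygen. The exposed arrays lay above the normoxia arrays in both genotypes. Col7a1 rose by 0.53 ± 0.15 in wild type (limma, adjusted p = 0.0218) and by 0.72 ± 0.15 in Fgf10+/-, 1.65-fold (limma, adjusted p = 0.00280). Without wild-type normoxia replicate 4 the wild-type difference was 0.51 (limma, adjusted p = 0.0547), and it also missed the threshold without wild-type normoxia replicate 1 or exposed replicate 2 or 4.

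Col8a2 gave the largest called rise of a collagen gene in wild type, whereas in Fgf10+/- that of Col4a4 was larger. It encodes a chain of type VIII collagen, a short network-forming collagen of vessel walls and of the corneal endothelium. In wild type it stood at 5.92, 4.76, 5.82 and 6.14 in normoxia and at 6.50, 6.93, 6.85 and 6.68 in 85% oxygen. The Fgf10+/- arrays gave 5.66, 5.67, 5.99 and 5.32 in normoxia and 6.36, 6.40, 6.48 and 6.40 in 85% oxygen. No exposed array overlapped a normoxia array of its genotype. Col8a2 rose by 1.08 ± 0.24 in wild type, 2.11-fold (limma, adjusted p = 0.00521), and by 0.75 ± 0.24 in Fgf10+/-, 1.68-fold (limma, adjusted p = 0.0321). The wild-type call held without any single array of the groups compared, and the Fgf10+/- call was lost in 7 of 8 such fits, with adjusted p up to 0.0964. The second Col8a2 feature, which was dim, gave -0.34 in wild type and 0.08 in Fgf10+/-, and the mean of both features was not called (limma, adjusted p = 0.236 and 0.156).

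The remaining 22 genes of the other families passed in neither genotype. Several lay just outside the threshold. Col14a1, a collagen that decorates type I fibrils, gave -0.45 ± 0.18 in wild type and -0.47 ± 0.18 in Fgf10+/- (limma, adjusted p = 0.103 and 0.0807). Col23a1, a transmembrane collagen, gave 0.38 ± 0.14 in wild type (limma, adjusted p = 0.0686) from 7.18 to 7.48 in normoxia and 7.61 to 7.84 in 85% oxygen, and 0.13 ± 0.14 in Fgf10+/-. Leaving out wild-type normoxia replicate 4 gave 0.31 for Col23a1 in wild type (limma, adjusted p = 0.171). Col25a1, another transmembrane collagen, gave differences of opposite sign, 0.28 in wild type and -0.49 in Fgf10+/-, and its interaction of -0.77 ± 0.28 did not pass (limma, adjusted p = 0.710). Col16a1 and Col18a1, bright members with group means between 12.07 and 12.29 and between 9.64 and 9.86, were not called. Of the 4 features of Col16a1, 1 passed in Fgf10+/- in the fit of single features, with a difference of -0.57 (limma, adjusted p = 0.0209), whereas the brightest one, which stands for the gene, gave -0.03. Under older platform symbols outside the rule lie 2 further genes of the file, Gm7455 and Emid2, which the current RefSeq table names Col6a5 and Col26a1. Neither was called in either genotype, and Col6a5 itself also has a feature under its own symbol and is counted through it.

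Genotype alone moved no collagen gene past the threshold. In normoxia 0 of 42 passed, beside 0.719% of all genes, and in 85% oxygen 0 of 42 passed, beside 0.411%. At an unadjusted p under 0.05 the counts over all genes were 12.9% and 9.01%, and the collagens below that level in normoxia were Col12a1, Col25a1, Col3a1, Col24a1 and Col1a2, named here after their values were seen. The largest of these differences was that of Col12a1, which encodes a fibril-associated collagen of tension-bearing tissue. It stood at 6.57, 6.99, 6.62 and 7.56 in wild type and at 7.77, 7.83, 7.29 and 7.82 in Fgf10+/- in normoxia. Wild-type replicate 4, the array with the cartilage and muscle signal, was the highest of its group. The difference was 0.74 ± 0.21 (limma, adjusted p = 0.130), and without that array it was 0.95 ± 0.18 (limma, adjusted p = 0.0244), when 1.45% of all genes passed. In 85% oxygen the collagens below that level were Col4a1, Col23a1, Col12a1 and Col4a2, also named after their values were seen. Col12a1 was 0.48 ± 0.21 higher in Fgf10+/- there (limma, adjusted p = 0.508), and Col4a1 was 0.38 ± 0.11 higher (limma, adjusted p = 0.234). Col4a2 was 0.26 ± 0.12 higher (limma, adjusted p = 0.544), while Col23a1 was 0.39 ± 0.14 lower (limma, adjusted p = 0.368). The interaction passed for no collagen gene and for 0% of the 20174 genes in limma, and 1335 genes (6.62%) had an unadjusted interaction p under 0.05, Col24a1 and Col25a1 among them.

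The brighter collagens followed their array as well as their group. Of the 16 collagen genes whose 4 group means were all at 8 or more, 15 had their lowest value of the Fgf10+/- normoxia group in replicate 3. In the same way 14 had their lowest exposed Fgf10+/- value in replicate 1, and 13 had their lowest exposed wild-type value in replicate 2. Replicate 4 of wild type in normoxia, replicate 1 of Fgf10+/- in normoxia and replicate 4 of exposed Fgf10+/- were highest for 10 of the 16 each. The 3 low arrays were also those with the lowest mean over 6 mesothelial markers in their group, at 6.92, 6.34 and 6.11, and the 3 high arrays those with the highest in theirs, at 7.95, 8.74 and 8.37. The mesothelium is the cell sheet on the lung surface. Its markers ranged from 7.01 to 7.95 in wild type in normoxia, 6.11 to 7.05 in 85% oxygen, 6.92 to 8.74 in Fgf10+/- in normoxia and 6.34 to 8.37 in 85% oxygen. In wild type 1 of the 6 markers fell (Upk3b), with a median difference of -0.96. In Fgf10+/- 1 fell (Lrrn4) and 1 rose (Msln), with a median of -0.79. Of all genes 8.74% fell in wild type, and 10.7% fell and 13% rose in Fgf10+/-. The part of the mesothelial signal in the collagen differences was not tested, and this pattern, with 1 of several marker lists, was noticed in the values. The lowest and highest arrays were not counted for genes other than collagens. Whether the pattern is particular to collagens is therefore not known.

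Fibroblasts and smooth muscle are the main makers of fibrillar collagen in the lung. The mean over 8 fibroblast markers ranged from 9.85 to 10.15 in wild type in normoxia and from 9.65 to 9.89 in 85% oxygen, and in Fgf10+/- from 10.002 to 10.32 and from 9.66 to 10.03. In each genotype 3 of the 8 fell and 1 rose. Pdgfra, the receptor that marks alveolar fibroblasts, fell by 1.45 in wild type and by 1.49 in Fgf10+/- (limma, adjusted p = 0.000148 and 8.5e-05), and Thy1 rose by 0.86 and 0.97. Of 7 endothelial markers 2 fell in wild type and 3 in Fgf10+/-, and none rose. Their differences ran from -0.97 (Pecam1) to 0.25 in wild type, with a median of -0.15. In Fgf10+/- they ran from -0.69 (Pecam1) to 0.20, with a median of -0.04. Of 6 smooth muscle markers 1 rose and 1 fell in wild type, and 2 rose in Fgf10+/-. These marker counts stand beside 8.74% of all genes that fell and 10.3% that rose in wild type, and 10.7% and 13% in Fgf10+/-. Whether the collagen differences followed these cell types was not tested.

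The enzymes and partners of collagen were read from 6 lists of genes by role. Their counts stand beside 8.74% of all genes that fell and 10.3% that rose in wild type, and 10.7% and 13% in Fgf10+/-. Of 21 genes that hydroxylate, glycosylate or fold the chains, 5 fell and none rose in wild type, and 6 fell and 2 rose in Fgf10+/-. The called share of this list was 23.8% in wild type, near the 19.1% of all genes, and 38.1% in Fgf10+/-, against 23.7%. The median difference of the list was -0.05 in both genotypes. When wild-type normoxia replicate 4 was left out, 5 fell and 1 rose in wild type, the latter being Creb3l1 at 0.49 (limma, adjusted p = 0.0415). P3h3, a prolyl 3-hydroxylase family member of the collagen-modifying complex, stood at 9.99, 9.89, 9.99 and 10.04 in wild type in normoxia and at 8.43, 8.35, 8.41 and 8.75 in 85% oxygen. Its Fgf10+/- values were 10.10, 10.29, 10.19 and 10.22 in normoxia and 8.65, 9.07, 8.93 and 8.77 in 85% oxygen. The exposed arrays lay over 1 log2 unit below the normoxia arrays in each genotype, and P3h3 fell by 1.49 ± 0.11 and by 1.35 ± 0.11 (limma, adjusted p = 2.59e-06 and 3.47e-06). P4hb, the shared subunit of the prolyl 4-hydroxylases, fell by 0.69 and 0.80, P4ha3, one of their catalytic subunits, by 1.12 and 1.24, and the folding enzyme Fkbp7 by 0.62 and 0.77 in wild type and Fgf10+/-.

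Of the 8 genes that cut procollagen ends or help to, 3 fell in each genotype and none rose. Bmp1, the protease that removes the carboxyl propeptide, stood at 11.85 to 12.11 in wild type in normoxia and at 11.37 to 11.46 in 85% oxygen. It fell by 0.56 ± 0.09 in wild type and by 0.73 ± 0.09 in Fgf10+/- (limma, adjusted p = 0.000893 and 9.58e-05). Adamts14, which removes amino propeptides, fell by 0.77 and 0.88, and Pcolce2, an enhancer of Bmp1, fell by 0.65 and 0.85. Adamts2, with the same role as Adamts14, gave -0.36 and -0.29 and was not called. Without wild-type normoxia replicate 4 the wild-type call of Pcolce2 was lost (limma, adjusted p = 0.0856).

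The 6 crosslinking enzymes did not move together. Pxdn, which crosslinks type IV collagen, fell by 0.62 ± 0.12 in wild type and by 0.49 ± 0.12 in Fgf10+/- (limma, adjusted p = 0.00195 and 0.00713). Loxl2, a lysyl oxidase of type IV and fibrillar collagen, stood at 11.22, 11.31, 11.28 and 11.51 in wild type in normoxia and at 10.91, 10.61, 10.79 and 10.60 in 85% oxygen. It fell by 0.60 ± 0.14 there (limma, adjusted p = 0.00728) and gave -0.13 in Fgf10+/- (limma, adjusted p = 0.582), with an interaction of 0.48 that did not pass (limma, adjusted p = 0.734). Lox, the founding lysyl oxidase, rose by 0.67 in Fgf10+/- (limma, adjusted p = 0.0363) and gave 0.34 in wild type. Loxl3 gave -0.52 and -0.24 and was not called. Between the genotypes in 85% oxygen Loxl2 was higher in Fgf10+/- by 0.85 ± 0.14 (limma, adjusted p = 0.0199).

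Of 11 proteoglycans and matricellular proteins that bind fibrils, 3 fell in wild type and 2 in Fgf10+/-, and none rose. Bgn, a small leucine-rich proteoglycan, stood at 9.45, 9.48, 9.50 and 9.71 in wild type in normoxia and at 7.68, 7.96, 7.96 and 8.44 in 85% oxygen. In Fgf10+/- it stood at 9.94, 10.11, 9.96 and 9.84 in normoxia and at 9.06, 9.28, 8.67 and 9.55 in 85% oxygen. Bgn fell by 1.53 ± 0.18 and by 0.82 ± 0.18 (limma, adjusted p = 6.9e-05 and 0.00390), and it was 1.13 higher in Fgf10+/- than in wild type in 85% oxygen (limma, adjusted p = 0.0169). With all 16 arrays, it and Loxl2 were the only genes of the 6 lists called between the genotypes, and the Bgn interaction of 0.70 did not pass (limma, adjusted p = 0.705). Lum, which limits fibril width, fell by 1.63 and 1.44. Its highest normoxia array was again wild-type replicate 4, at 8.93 against 7.01 to 7.31 in the other 3, and without it the wild-type difference was -1.19 (limma, adjusted p = 0.0228). Fmod fell by 1.45 in wild type, a call lost without that array (limma, adjusted p = 0.0554). Thbs2 was not called for oxygen, at -0.41 and -0.48, and was 1.03 higher in Fgf10+/- in normoxia without that array (limma, adjusted p = 0.0259).

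Of 10 receptors of collagen, 3 fell and 1 rose in wild type, and 4 fell and 1 rose in Fgf10+/-. When wild-type normoxia replicate 4 was left out, 2 fell and 1 rose in wild type, since Itga11 was no longer called (limma, adjusted p = 0.0655). The 2 discoidin domain receptors moved apart. Ddr1, the form of epithelial cells, rose by 0.76 and 0.82 in wild type and Fgf10+/- (limma, adjusted p = 0.000512 and 0.000212), while Ddr2, the form of mesenchymal cells, fell by 0.80 and 0.53 (limma, adjusted p = 0.00622 and 0.0447). Itga1, a collagen-binding integrin chain, fell by 0.75 and 0.92. Mrc2, an uptake receptor for collagen fragments, fell by 0.64 in Fgf10+/- (limma, adjusted p = 0.00788). Of 14 basement membrane partners of type IV collagen, 6 fell and 1 rose in wild type and 5 fell and 3 rose in Fgf10+/-. Nid2, a linker of laminin to type IV collagen, fell by 0.81 and 0.77. The laminin chains Lama4 and Lamb2 fell by 0.65 and 0.67 in wild type and by 0.41 and 0.57 in Fgf10+/-. Lamc3 rose by 1.18 and 1.54 (limma, adjusted p = 0.00256 and 0.000268).

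**Figure D4:**
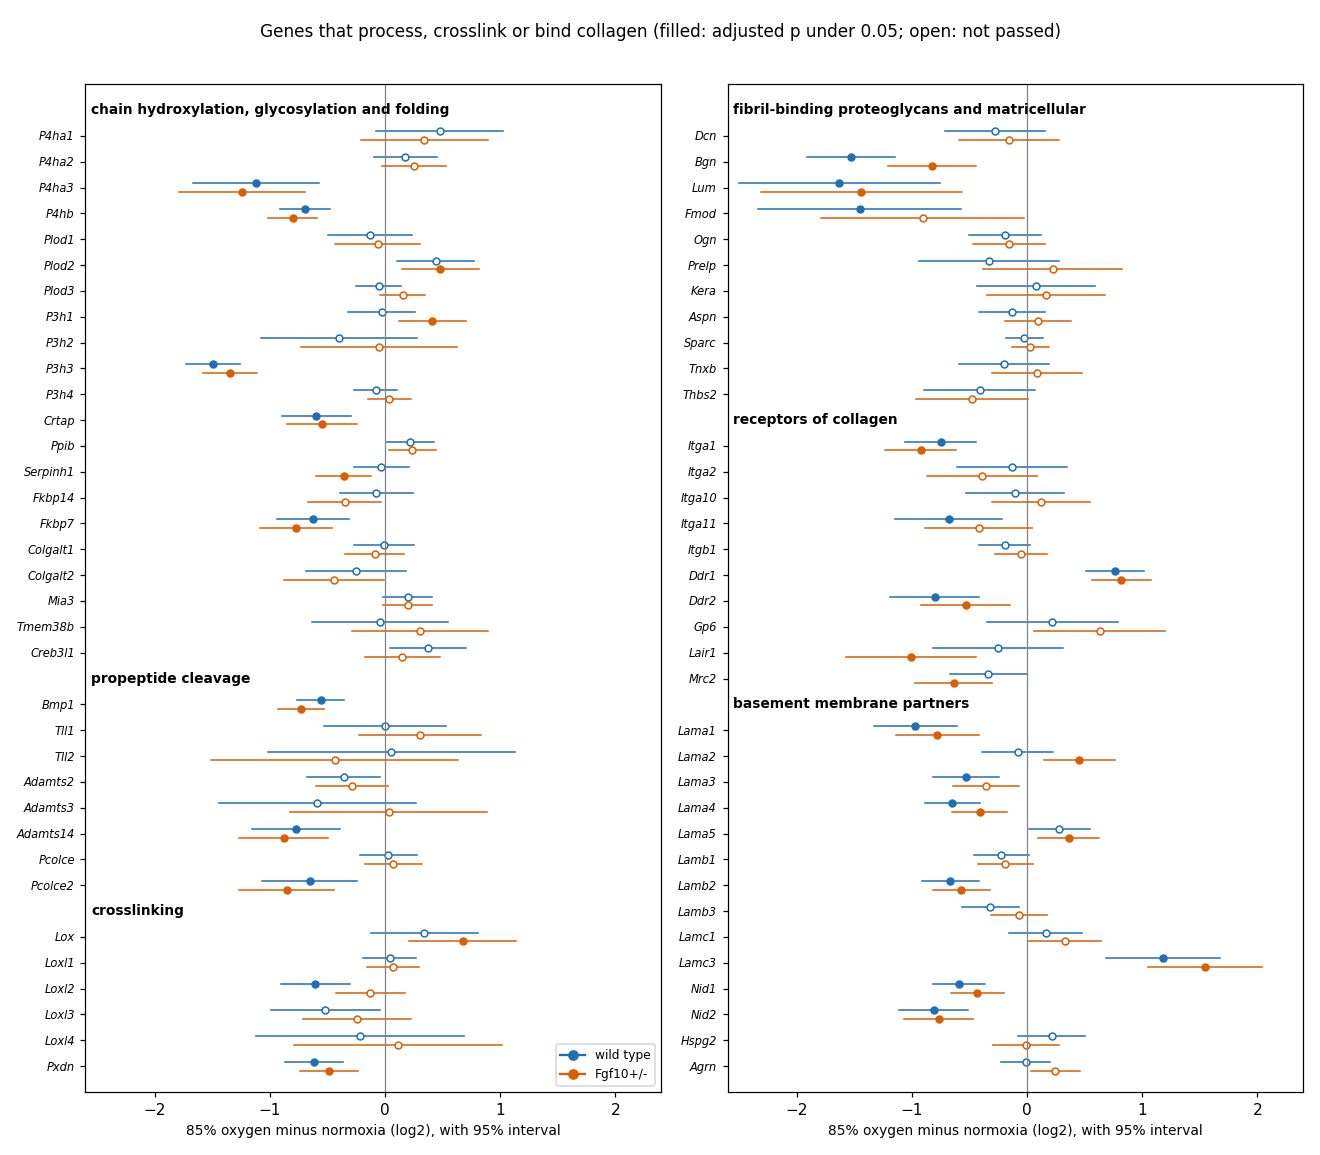
Log2 difference between 85% oxygen and normoxia (x axis) for the genes of the 6 lists that process, crosslink or bind collagen, in wild type (blue) and Fgf10+/- (orange), with 95% intervals from limma; filled points had an adjusted p under 0.05. In wild type P3h3, Bgn and Lum lie farthest to the left and Lamc3 farthest to the right, and the genotypes lie on the same side for every gene with a filled point except P3h1 and Lama2.

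Across all 42 genes the sign of the oxygen difference was the same in wild type and Fgf10+/- for 37 (88.1%), beside 14636 of 20174 genes tested (72.5%). The 2 comparisons share no arrays. Of the collagen genes that passed in both, Col5a2 had the largest fall in each genotype, and the largest rise was that of Col8a2 in wild type and that of Col4a4 in Fgf10+/-. No collagen gene passed with opposite signs in the 2 genotypes, as 0.0198% of all genes did.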

How the data were processed

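RNA of 16 whole-lung samples was measured on 1 array each. The values are log2 intensities as the authors deposited them. Array medians differed by 0.00068 at most. How they were normalized and background-corrected, and on which slides, is not stated in the labels. Features took their gene from the platform annotation, with 31465 naming 1 gene and 31511 none. For 29050 the accession was found in the RefSeq table of GRCm38.p6, which then gave the name. How many names this changed was not counted. Membership followed the platform symbol. The filter kept features whose signal exceeded the array's 25th percentile in 4 or more arrays, and a gene was represented by its kept feature with the highest mean. Of all values, 33 were missing.

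limma 3.58.1 in R 4.3.3 fitted a mean for each of the 4 groups, and eBayes added 2.13 prior to the 12 residual degrees of freedom. The 5 contrasts set 85% oxygen against normoxia per genotype, Fgf10+/- against wild type per oxygen level, and tested the interaction. Benjamini-Hochberg adjustment ran separately per contrast, and calls needed a value under 0.05. The pipeline was tested on simulated data. The number of arrays limits the precision, and intensities carry no count. Named genes are every collagen called in any contrast, Col1a1, Col1a2, Col3a1, Col4a1, Col4a2, Col6a1 and Col6a2 always, members near background, Fgf10, and up to 4 genes per list with the smallest p for oxygen. Others were named after their values were seen. The collagen genes, classes and gene lists were chosen with earlier results of these data known. Alternatives changed the filter, the choice of feature, the scaling, the fit, the fold minimum, a replicate block and the arrays included.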

Additional observations from a re-analysis of the deposited data

Results flagged for a closer look

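In 11 of 168 combinations of a collagen gene and a group, 1 array lay far from the other 3 by Dixon's test. Chance flags about 1 in 20 such groups, and no cause was tested. Replicate 4 of wild type in normoxia, the array with the cartilage and muscle signal, read 9.55 for Col9a1 while the others lay between 3.78 and 4.09. In the same group replicate 3 was low for Col22a1, at 4.86 against 5.35 to 5.44, and replicate 1 was low for the dim Col6a5, at 2.84 against 3.66 to 3.76. In exposed wild type, replicate 3 was low for Col24a1, at 4.35 against 4.69 to 4.75, and replicate 4 was high for Col6a4, at 5.34 against 4.76 to 4.85. In Fgf10+/- in normoxia, replicate 1 was high for Col5a2, at 9.96 against 9.55 to 9.59, and for Col5a3, at 5.80 against 5.63 to 5.65, and low for Col23a1, at 6.98 against 7.30 to 7.33. Replicate 3 of that group was low for Col12a1, at 7.29 against 7.77 to 7.83, and high for Col24a1, at 5.54 against 5.14 to 5.18. In exposed Fgf10+/-, replicate 3 was low for Col18a1, at 9.57 against 9.84 to 9.89.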

How the results depend on the processing

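No called collagen difference changed sign under any alternative run, and the calls of Col5a2 held under all of them. The count of collagens that fell in wild type was 7, and it was 3 in a fit to only the groups compared and 2 with a fold minimum of 1.5, which also left 1 of the 3 that rose. The count that fell in Fgf10+/- was 4, and it was 7 with limma's trend and robust options and 2 with the fold minimum. The count that rose there was 4, and it was 2 with each gene read as the mean of its features, a setting under which Col4a4 and Col8a2 were not called in either genotype. With the trend and robust options 1 collagen was higher in Fgf10+/- in normoxia and 1 in 85% oxygen (Col4a1, limma adjusted p = 0.0255), against 0 otherwise, and Col3a1 fell in Fgf10+/- (limma, adjusted p = 0.0489). An array was left out only for the contrasts that use its group. With 1 array of the compared groups left out, 3 to 8 collagens fell and 2 to 3 rose in wild type. In Fgf10+/- 2 to 4 fell, with 2 without exposed replicate 1, and 3 rose in each such fit. The low of 3 in wild type came without normoxia replicate 2 or 4 and the high of 8 without normoxia replicate 1; without exposed replicate 1 or 2 it was 4. The count higher in Fgf10+/- in normoxia was 0 to 1. The other filters, scaling, repeated quantile normalization, array weights and the count of multiplexins as basement membrane collagens left each collagen count within 1.5 times of its value, though the Col1a2 call in wild type was lost after repeated quantile normalization. Same-numbered arrays of different groups correlated between -0.03 and 0.09, none over 0.1, so the numbers were not taken to pair the samples. With the replicate block 7 collagens became 6 that fell in wild type, since Col6a2 had an adjusted p of 0.0600, and over all genes the calls between genotypes in 85% oxygen went from 83 to 37. Levels near the array median and near the top of the scale limit the genes named at those ends.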
